A study of Danio rerio with 6 samples.

Results

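The insulin-like growth factor (IGF) genes examined here are 10 zebrafish genes taken by symbol, the ligands igf1, igf2a and igf2b and the binding protein genes igfbp1a, igfbp1b, igfbp2a, igfbp2b, igfbp3, igfbp5a and igfbp5b, out of 32520 genes in the count table. All 10 were found and all 10 passed the filter on low counts, which left 21708 genes for testing. They were measured by RNA sequencing of polyA RNA from embryos collected 5 days post fertilization, in 3 wild type libraries (headed wt11, wt12 and wt13) and 3 libraries of sas10 mutants (headed s1, s2 and s3). Sas10 is a nucleolar protein needed to process the precursor of ribosomal RNA, and its gene is utp3 in zebrafish. The labels give the genotype as sas10 mutant or wild type, and name no treatment, and give neither the allele, the zygosity, the clutch nor how many embryos went into a library.

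IGF ligands are secreted peptides related to insulin that act through receptor tyrosine kinases and the PI3K, Akt and mTOR kinases to promote growth and survival of cells. In plasma and tissues most of the ligand is held by IGF-binding proteins, which can keep it from its receptors or deliver it to them. In fish as in mammals, growth hormone from the pituitary drives igf1 transcription in the liver, while Igfbp1 is known from zebrafish as a brake on embryonic growth that is induced under low oxygen and fasting. Genome duplication left fish with paired copies of many of these genes, marked a and b.

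Total counts per library ran from 17599625 to 19718753. The transcript of utp3 stood at 32.3 ± 4.43 counts per 1000000 (CPM) in wild type and at 10.8 ± 0.42 CPM in mutants (SD, n = 3 each), a log2 fold change of -1.58 ± 0.13 (SE). CPM are given on library sizes scaled by TMM. Genes were called at a Benjamini-Hochberg adjusted p under 0.05 in edgeR's quasi-likelihood test over all tested genes, and "rose" and "fell" are used for called genes with mutants above or below wild type. Library wt11 stood apart from the other wild type libraries: the chi-square per degree of freedom between replicate counts was 18.8 and 30.5 for the pairs that include it and 7.29 to 10.1 for all other pairs. Values without it are given beside results that it moved strongly. Embryos hold many tissues, so fewer cells that express a gene and less RNA per cell cannot be told apart. The series text calls the libraries biological repeats and names no source animals, so p-values here cover only how far these libraries differ among themselves.

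Of the 10 genes, 3 rose, 5 fell and 2 were not called. Among all tested genes 62.2% were called, 30.5% higher and 31.8% lower in mutants, so a high number of calls was the rule across this transcriptome. The 3 mutant and 3 wild type libraries did not overlap in CPM for 8 of the 10, against 67.6% of tested genes. The median log2 fold change of the 10 was -0.43, beside -0.04 over all tested genes. Increases were in igf2b, igfbp1a and igfbp3 and decreases in igf1, igfbp1b, igfbp2b, igfbp5a and igfbp5b, while igf2a and igfbp2a were not called. The authors' deposited table holds only genes with an adjusted p of at most 0.0494 and a change of at least 1.5-fold. In it 7 of the 10 are listed, all but igf1, igf2a and igfbp2a. That table has 8574 rows in all, beside 21708 genes tested here, so its background differs from the 62.2% above. A count of 7 among 10 says little by itself.

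**Figure D1:**
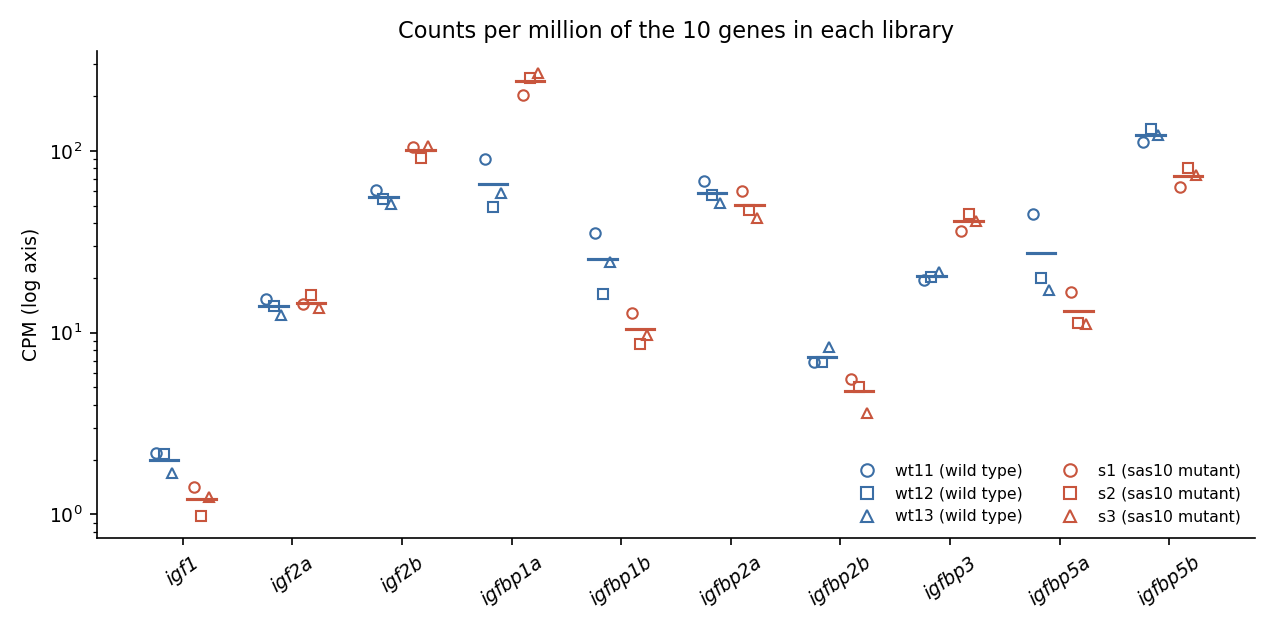
CPM on a log axis for the 10 genes, with 1 symbol per library (blue wild type, red sas10 mutant) and a bar at each group mean of 3 libraries. igfbp1a stands at 203 to 268 CPM in mutants against 49.1 to 89.7 in wild type, and igfbp5a in library wt11 (44.9 CPM) lies above every other library.

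Among the ligands, igf2b rose, igf1 fell and igf2a was not called. The gene igf2b (ENSDARG00000033307, GRCz11 chromosome 25, 24039364 to 24046870, minus strand) encodes a fetal-type growth factor. It had 61.2, 54.5 and 50.7 CPM in wt11, wt12 and wt13, and 104.9, 91.6 and 106.4 CPM in s1, s2 and s3. Every mutant library lay above every wild type library. Its mean went from 55.5 ± 5.32 to 101.0 ± 8.18 CPM (SD, n = 3 each), a log2 fold change of 0.86 ± 0.11 (SE, adjusted p = 4.78e-05).

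The other IGF2 copy, igf2a (ENSDARG00000018643, chromosome 7, 48870496 to 48876480, plus strand), had 15.3, 14.1 and 12.5 CPM in the wild type libraries and 14.3, 16.0 and 13.6 CPM in the mutants. These ranges overlapped. The log2 fold change of igf2a was 0.07, with a 95% interval of -0.22 to 0.37 (adjusted p = 0.665). A change of either sign within that interval was not resolved with these libraries.

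The liver-derived hormone gene igf1 (ENSDARG00000094132, chromosome 4, 17310143 to 17326717, plus strand) was the scarcest of the 10. It was read at 39, 41 and 33 counts in wild type and at 26, 18 and 24 counts in mutants, or 2.16, 2.15 and 1.70 CPM against 1.41, 0.98 and 1.24 CPM. The groups did not overlap, although the highest mutant lay close to the lowest wild type library. Its log2 fold change was -0.72 ± 0.28 (adjusted p = 0.0434). The call sat near the threshold and was lost in 7 of 13 alternative settings, with an adjusted p of up to 0.143 when s2 was left out and of 0.117 with DESeq2. It was also lost with no filter on low counts (0.0697) and without wt11, wt12, s1 or s3, at 0.0943, 0.116, 0.0548 and 0.0877.

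The copies of igfbp1, a short-lived binding protein made mainly by liver and regulated by feeding and oxygen, moved in opposite directions. For igfbp1a (ENSDARG00000099351, chromosome 20, 6808774 to 6812688, minus strand), wild type libraries had 89.7, 49.1 and 58.6 CPM and mutant libraries 203, 251 and 268 CPM. The lowest mutant was more than double the highest wild type library. From 65.8 ± 21.3 CPM the mean reached 241 ± 33.7 CPM, a log2 fold change of 1.87 ± 0.21 (adjusted p = 3.3e-05), or 3.66-fold. That increase exceeded the log2 fold change of 96.6% of tested genes and was the largest of the 10. In the authors' deposited table the log2 fold change of igfbp1a is 1.81.

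For igfbp1b (ENSDARG00000038666, chromosome 2, 124433 to 127945, minus strand), the wild type libraries had 35.3, 16.3 and 24.5 CPM and the mutants 12.8, 8.68 and 9.74 CPM. All mutants lay below all wild type libraries, which themselves differed from each other by more than the mutants did. The mean dropped from 25.4 ± 9.53 to 10.4 ± 2.16 CPM, a log2 fold change of -1.28 ± 0.26 (adjusted p = 0.00217), the largest decrease among the 10. Library wt11 held the highest wild type level of both copies. Without it the log2 fold change was 2.17 for igfbp1a and -0.96 for igfbp1b, and both stayed called (adjusted p = 5.18e-08 and 0.00159).

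Within a library the ratio of the paralogs needs no scaling between libraries. In wild type, igfbp1a had 2.54, 3.01 and 2.39 counts per count of igfbp1b, and in the mutants 15.8, 28.9 and 27.6. The mean log2 ratio moved by 3.14, and the groups did not overlap. The ratio of igf2a to igf2b was 0.25, 0.26 and 0.25 in wild type and 0.14, 0.17 and 0.13 in mutants, a move of -0.79 on the log2 scale. For both pairs the two-sided exact permutation p was 0.1, the smallest that 3 against 3 libraries allow (adjusted p = 0.2 over 4 pairs). The copies of igfbp2 and igfbp5 were tested the same way. The ratio of igfbp2a to igfbp2b moved by 0.42 (exact p = 0.2, adjusted p = 0.267) and that of igfbp5a to igfbp5b by -0.20 (exact p = 0.8, adjusted p = 0.8), and their groups overlapped.

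**Figure D2:**
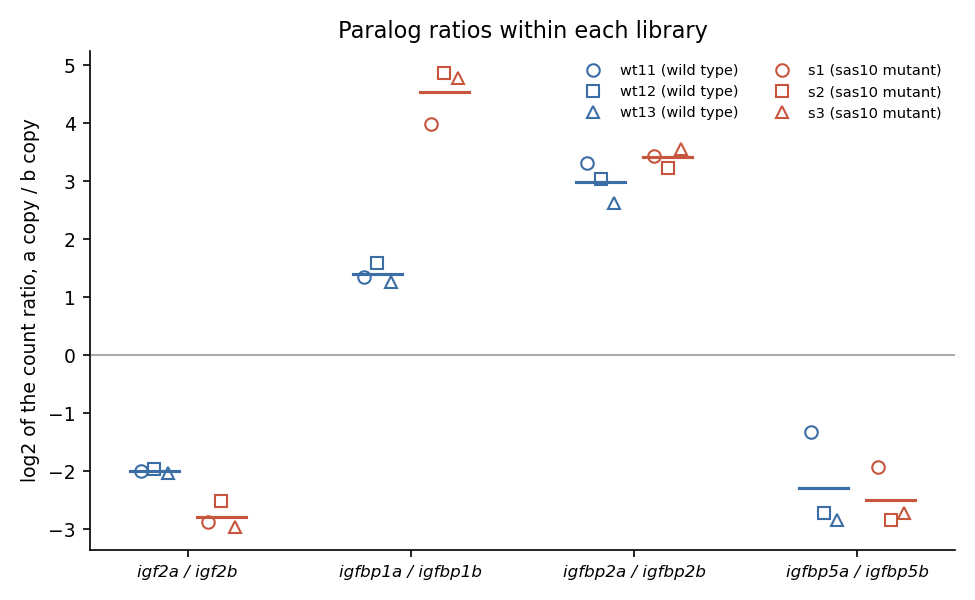
Log2 of the ratio of raw counts of the a copy to the b copy within each library for the 4 paralog pairs, 1 symbol per library and a bar at each mean of 3. The igfbp1 pair separates by genotype by 3.14 log2 units, and the igfbp5 pair is highest in wt11 and s1 within their groups.

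The gene for igfbp3, the main carrier of IGF in mammalian plasma, rose. Wild type libraries were close together, at 19.6, 20.1 and 21.4 CPM for igfbp3 (ENSDARG00000099144, chromosome 20, 6756247 to 6804237, plus strand), and the mutants had 36.3, 45.1 and 41.2 CPM. There was no overlap. Its mean doubled from 20.4 ± 0.94 to 40.9 ± 4.41 CPM, with a log2 fold change of 1.00 ± 0.12 (adjusted p = 2.13e-05).

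Both igfbp5 copies fell, and only igfbp5b did so in all 13 alternative settings. This binding protein attaches to extracellular matrix and bone. Levels of igfbp5b (ENSDARG00000025348, chromosome 9, 46820636 to 46842179, minus strand) were 112, 133 and 122 CPM in wild type and 63.1, 80.8 and 73.5 CPM in mutants. The groups were well apart, and the mean went from 122 ± 10.15 to 72.5 ± 8.92 CPM (log2 fold change -0.76 ± 0.12, adjusted p = 0.000203).

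In zebrafish igfbp5a is known from calcium-transporting ionocytes of the skin, where it promotes IGF signalling. Library wt11 had 44.9 CPM of igfbp5a (ENSDARG00000039264, chromosome 6, 20910551 to 20918694, plus strand), more than double wt12 (20.1) and wt13 (17.2), and the mutants had 16.7, 11.3 and 11.2 CPM. The highest mutant lay just under the lowest wild type library. The log2 fold change was -1.07 ± 0.37 (adjusted p = 0.0356). Without wt11 it shrank to -0.50 (adjusted p = 0.0235), and without s2 or s3 it no longer passed (adjusted p = 0.102 and 0.115). DESeq2 and limma voom gave adjusted p = 0.0531 and 0.0564, and a fit with no filter on low counts gave 0.14. In the authors' deposited table igfbp5a has a log2 fold change of -1.13 and an adjusted p of 0.000612. Why that value differs from the DESeq2 fit here was not tested.

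Of the copies of igfbp2, a binding protein of liver and the nervous system, igfbp2b fell and igfbp2a was not called. Wild type libraries had 6.88, 6.92 and 8.34 CPM of igfbp2b (ENSDARG00000031422, chromosome 9, 46745348 to 46799620, plus strand) and mutants 5.58, 5.05 and 3.63 CPM, without overlap. It fell by 0.64 on the log2 scale (SE 0.20, adjusted p = 0.0145), and did not pass without wt13 or s3 (adjusted p = 0.0575 and 0.07). For igfbp2a (ENSDARG00000052470, chromosome 6, 20921542 to 20952187, minus strand), levels of 68.0, 57.0 and 51.6 CPM in wild type and 60.5, 47.3 and 42.7 CPM in mutants overlapped. Its log2 fold change was -0.23, with a 95% interval of -0.55 to 0.09 (adjusted p = 0.19).

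**Figure D3:**
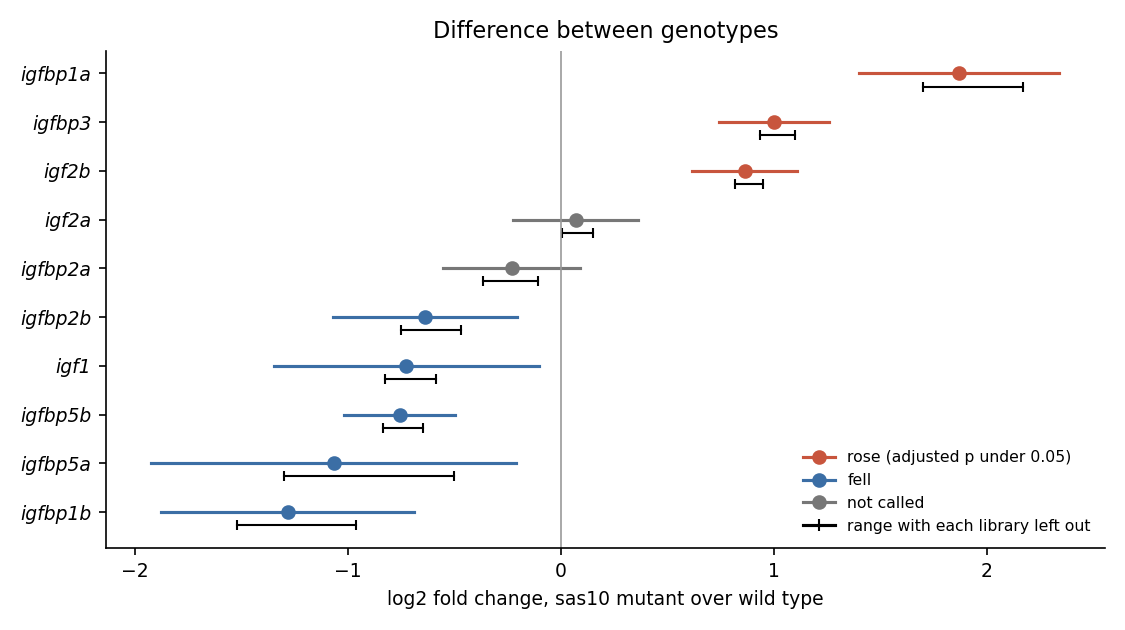
Log2 fold change of each of the 10 genes (point) with its 95% interval from edgeR (coloured line), and below it in black the range of the value when each of the 6 libraries was left out in turn. The estimate for igfbp5a runs from -1.30 to -0.50 over the left-out libraries, and that for igfbp1a from 1.70 to 2.17.

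Of the 7 binding protein genes 6 lie in neighbouring pairs that face each other tail to tail with no annotated gene between them. On chromosome 20, igfbp3 and igfbp1a are 4.5 kb apart, and both rose (log2 1.00 and 1.87). On chromosome 9, igfbp2b and igfbp5b are 21.0 kb apart, and both fell (log2 -0.64 and -0.76). On chromosome 6, igfbp5a and igfbp2a are 2.8 kb apart, and igfbp5a fell (log2 -1.07) while igfbp2a was not called (log2 -0.23). The remaining gene, igfbp1b on chromosome 2, has none of the 10 on its chromosome. Annotated exons of the 10 genes overlap those of no other annotated gene. The counting used no strand option, and transcripts that run past an annotated end into a partner were not looked for.

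Levels were then compared between genes on a per-length scale, as transcripts per 1000000 (TPM) computed from the counts and the summed exon lengths. In wild type the highest mean levels were those of igfbp1a (73.9 ± 17.4 TPM) and igfbp2a (67.5 ± 2.09), whose ranges overlapped. Next came igfbp5b (41.1 ± 6.72), igfbp1b (38.9 ± 12.1), igf2b (33.0 ± 0.72) and igfbp5a (25.8 ± 11.4), with each overlapping its neighbour in the order. Lower and mutually overlapping were igf2a (13.4 ± 0.22), igfbp3 (13.2 ± 2.09) and igfbp2b (12.5 ± 2.77), and igf1 was last at 3.25 ± 0.23 TPM, apart from the rest. In mutants igfbp1a (261 ± 41.0 TPM) stood apart from the next genes, igf2b (57.2 ± 4.69) and igfbp2a (55.0 ± 9.03), which overlapped. The level of igfbp3 (24.9 ± 3.00 TPM) had moved past those of igfbp1b (15.4 ± 2.93) and igfbp5a (12.1 ± 2.66), and overlapped that of igfbp5b (23.0 ± 3.12). At the low end, igf2a (13.4 ± 1.14 TPM) overlapped igfbp1b and igfbp5a, while igfbp2b (7.53 ± 1.49) and igf1 (1.87 ± 0.32) stood apart below them.

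Among binding protein transcripts taken as a pool, igfbp1a held the largest share in every mutant library. The share of igfbp1a in the summed TPM of the 7 binding protein genes was 30.0%, 23.8% and 26.7% in the wild type libraries and 59.2%, 66.6% and 69.8% in the mutants. Shares of igfbp1b (14.0% ± 2.87 to 3.90% ± 1.05), igfbp2a (25.0% ± 2.63 to 14.0% ± 3.46), igfbp2b (4.62% ± 1.13 to 1.91% ± 0.50), igfbp5a (9.29% ± 3.17 to 3.07% ± 0.94) and igfbp5b (15.4% ± 3.99 to 5.75% ± 0.47) were lower in every mutant library than in every wild type library. Shares of a pool sum to 100%, so these are not independent of the share of igfbp1a, and igfbp2a itself was not called. The share of igfbp3 was 3.69%, 5.49% and 5.51% in wild type and 5.95%, 6.74% and 6.03% in mutants. Its mean difference of 1.35 percentage points was 0.74 without wt11. For the share of igfbp1a the exact two-sided permutation p was 0.1, the smallest possible here.

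The summed TPM of the 7 binding protein genes was 303, 236 and 279 in wild type and 364, 410 and 423 in mutants, so the pool was larger in every mutant library. Without igfbp1a the sum of the other 6 was 212.5, 180.1 and 204.3 TPM in wild type and 148.8, 136.9 and 127.8 TPM in mutants, lower in every mutant library. That of the 3 ligands was 48.8, 49.7 and 50.3 in wild type and 73.3, 68.4 and 75.9 in mutants. Binding protein transcripts per ligand transcript numbered 5.50 ± 0.73 in wild type and 5.51 ± 0.51 in mutants, with overlapping ranges.

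**Figure D4:**
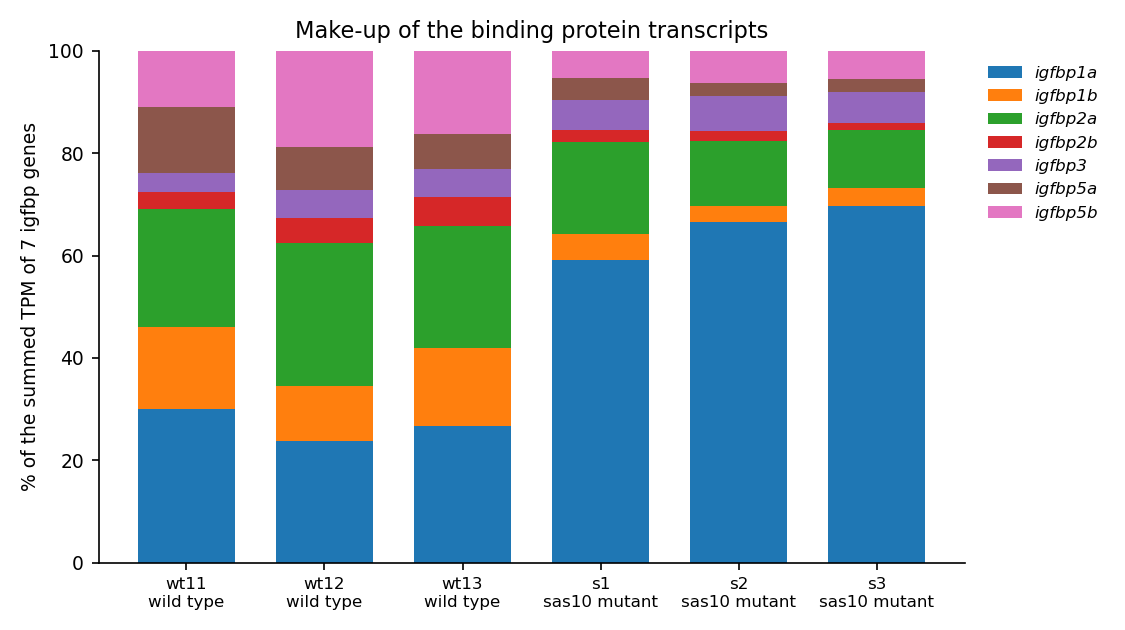
Share of each of the 7 binding protein genes in their summed TPM, as stacked bars, 1 bar per library. The igfbp1a part grows from 23.8% to 30.0% in wild type libraries to 59.2% to 69.8% in mutant libraries.

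Further members of the binding protein family were also called. All of the 4 genes in the list of further IGF-binding and ternary complex proteins were called, 1 higher and 3 lower, each without overlap. Over all tested genes 62.2% were called and 67.6% did not overlap, so a count this small says little by itself. The gene igfbp6b, for a binding protein that prefers IGF2 in mammals, rose from 4.54 ± 1.16 to 48.3 ± 20.4 CPM (log2 3.41 ± 0.35, adjusted p = 5.22e-05). With igfbp6a, igfbp6b and igfbp7 added to the pool, igfbp6b made up 1.97% ± 0.24 of its TPM in wild type and 13.3% ± 4.55 in mutants, and igfbp1a 21.4% ± 3.37 and 51.5% ± 3.47. The gene igfals, for the acid-labile subunit that holds IGF and Igfbp3 in a ternary complex in mammalian plasma, fell from 4.31 ± 0.47 to 0.54 ± 0.24 CPM (log2 -3.00 ± 0.31, adjusted p = 8.12e-06). A related secreted protein gene, igfbp7, fell by 0.62 on the log2 scale (SE 0.16, adjusted p = 0.00473). An annotated gene overlaps its exons, so its counts are less certain. The 4th, igfbp6a, named after its values were seen, had 46 counts over the wild type libraries and 1 over the mutants, a ratio of 45.7 with an exact 95% interval of 7.81 to 1845 for counting error only.

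Of 5 receptor genes 2 fell and 3 were not called. Over all tested genes 30.5% rose and 31.8% fell, so a count this small says little by itself. The insulin receptor copies insrb (36.6 ± 3.82 to 26.8 ± 1.27 CPM, log2 -0.45 ± 0.12, adjusted p = 0.0051) and insra (77.4 ± 7.28 to 60.3 ± 2.96 CPM, log2 -0.36 ± 0.11, adjusted p = 0.0118) fell. The IGF1 receptor copies igf1ra (log2 0.11) and igf1rb (log2 0.36, adjusted p = 0.0831) and the IGF2 clearance receptor igf2r (log2 -0.12), named after their values were seen, were not called. Without wt13 or without s1, 1 receptor gene fell and 1 rose, and 1 rose with no filter on low counts. The insulin gene ins, expressed in pancreatic beta cells, rose from 18.5 ± 4.46 to 38.1 ± 2.70 CPM (log2 1.05 ± 0.16, adjusted p = 0.000177), while igf3 and insb had too few counts to test.

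Of 7 listed IGFBP protease and stanniocalcin genes, 3 were tested. The protease genes pappaa and pappab and the stanniocalcin gene stc1l had no match, and stc1 had too few counts to test. Of the 3 tested, 1 rose and 2 were not called, beside 30.5% higher and 31.8% lower among all tested genes. The stanniocalcin gene stc2a, whose mammalian product inhibits the protease that cleaves Igfbp4, had 23.5 ± 2.01 CPM in wild type and 33.8 ± 1.73 in mutants and rose (log2 0.53 ± 0.11, adjusted p = 0.00181). The protease gene pappa2 (log2 0.02) and stc2b (log2 0.10) were not called.

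In the growth hormone axis 6 of 14 genes rose, 1 fell and 7 were not called. Over all tested genes 62.2% were called, 30.5% higher and 31.8% lower in mutants. The hypothalamic releasing hormone gene ghrh had 4 counts over the wild type libraries and 225 over the mutants, a ratio of 56.6 with an exact 95% interval of 21.8 to 209 for counting error. The feedback inhibitor gene socs3a, which also answers to cytokines, had 9.31 ± 1.88 CPM in wild type and 387 ± 32.0 in mutants, and rose (log2 5.38 ± 0.17, adjusted p = 9.12e-10). The pituitary hormone genes gh1 (4.73 ± 1.05 to 16.7 ± 5.40 CPM, log2 1.82 ± 0.24) and prl (0.79 ± 0.39 to 26.0 ± 11.8 CPM, log2 5.05 ± 0.43) and the genes cish (log2 0.97) and stat5b (log2 0.65), all named after their values were seen, also rose. The receptor gene ghrb fell from 75.7 ± 19.8 to 48.9 ± 5.91 CPM (log2 -0.63 ± 0.17, adjusted p = 0.00864). With upper-quartile scaling, or without wt11, 3 genes of this axis fell.

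Downstream of the receptors, 14 of 47 signal transduction genes rose and 18 fell, beside backgrounds of 30.5% and 31.8%, with a median log2 fold change of -0.12. Both balances moved with the scaling: with upper-quartile scaling 10 of these genes rose and 21 fell, and over all tested genes 5630 rose and 8047 fell, against 6614 and 6894. Among those that rose were sesn2 (4.12 ± 0.55 to 36.6 ± 1.92 CPM, log2 3.15 ± 0.14), a stress-induced inhibitor of mTOR complex 1, and rps6kb1a (16.0 ± 4.02 to 77.0 ± 3.94 CPM, log2 2.27 ± 0.16), an S6 kinase that this complex activates. Among those that fell were pdpk1a (21.6 ± 3.47 to 6.59 ± 0.90 CPM, log2 -1.71 ± 0.16), the kinase that activates Akt, and foxo6a (1.77 ± 0.75 to 0.64 ± 0.25 CPM, log2 -1.46 ± 0.41), a forkhead factor that Akt restrains. The adjusted p of these genes was 8.82e-09, 3.99e-07, 3.62e-06 and 0.00883.

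**Figure D5:**
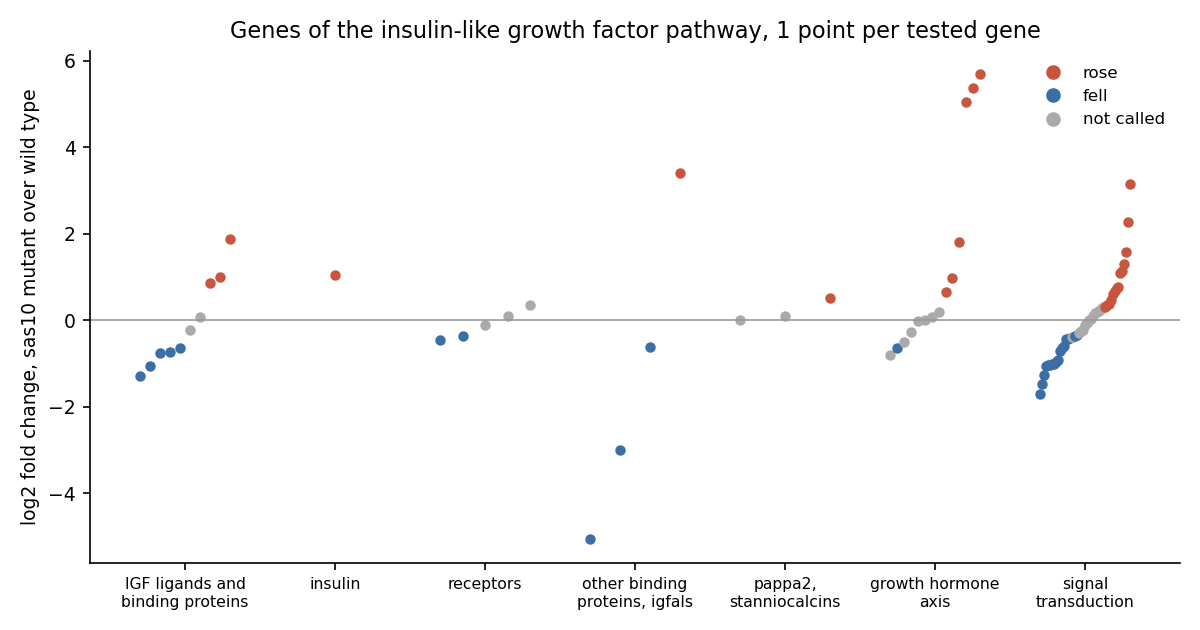
Log2 fold change of every tested gene of the pathway, 1 point per gene, grouped by role and ordered by value within a group (red rose, blue fell, grey not called). The 10 ligand and binding protein genes run from -1.28 to 1.87. The highest points are ghrh (5.69, with 4 counts over the wild type libraries) and socs3a (5.38), both in the growth hormone axis.

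Because igfbp1 genes respond to low oxygen, hypoxia-inducible factor genes and their known targets were read beside the igfbp1 copies. Of these copies igfbp1a rose (log2 1.87) and igfbp1b fell (log2 -1.28). Of 19 tested genes of the hypoxia list, 8 rose, 5 fell and 6 were not called, with a median log2 fold change of 0.24. Over all tested genes 30.5% rose and 31.8% fell. Among those that rose was the glycolytic regulator pfkfb3 (37.4 ± 6.20 to 247 ± 14.7 CPM, log2 2.72 ± 0.14, adjusted p = 2.79e-08), and the largest decreases were in the mitophagy gene bnip3 (log2 -1.41 ± 0.18) and the carbonic anhydrase gene ca9 (log2 -1.10 ± 0.23). Factor genes and targets are counted together here, and genes of the list moved in both directions. Any link between them and either igfbp1 copy was not tested.

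Markers of the tissues that express IGF genes moved as well, and their part in the results above was not tested. Their counts are to be read against the 30.5% of all tested genes that rose and the 31.8% that fell. Of 21 tested hepatocyte markers 11 fell, 7 rose and 3 were not called, with a median log2 fold change of -0.40. Their summed level was 9824 to 11530 CPM in wild type and 9533 to 9866 CPM in mutants, and no marker was at 0 counts in the mutants. Highest in both genotypes were apobb.1 (3538 ± 266 to 2682 ± 89.5 CPM) and apoa2 (1914 ± 333 to 2597 ± 199 CPM), which weigh heavily in this sum. Named after their values were seen, fabp10a fell from 365 ± 118 to 8.09 ± 0.59 CPM (log2 -5.50 ± 0.24) and tfa from 1414 ± 280.5 to 318 ± 65.5 CPM (log2 -2.15 ± 0.20). The gene ahsg1 had 1294 counts over the wild type libraries and 3 over the mutants. That ratio was 429, with an exact 95% interval of 146 to 2082 for counting error. The carrier protein gene ttr fell (log2 -6.66 ± 0.24), while the fibrinogen genes fga (log2 2.00 ± 0.13) and fgb (log2 2.00 ± 0.13) rose. Both upper-quartile scaling and leaving out wt12 or s2 changed this, and the number of hepatocyte markers that rose was 4.

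Nervous system markers were 12 lower and 1 higher of 13, with a summed level of 1966 to 2527 CPM in wild type and 1091 to 1309 in mutants. The myelin gene mbpa (log2 -1.96 ± 0.12) and gad1b (log2 -1.50 ± 0.13), for the enzyme that makes GABA, fell most, and the glial gene gfap (log2 0.31 ± 0.12) did not pass with upper-quartile scaling or without wt12, wt13, s2 or s3. Of 13 muscle markers 6 rose and 1 fell, and their summed level was 44530 to 61040 CPM in wild type and 65210 to 68600 in mutants. The creatine kinase gene ckmb (log2 1.21 ± 0.18) and the myogenic factor gene myod1 (log2 1.08 ± 0.14) rose most, and the fast myosin gene myhz2 (log2 -1.22 ± 0.17) fell. The number of muscle markers that fell was 2 with upper-quartile scaling, DESeq2, limma on TPM or without wt13. Of 13 cartilage and bone markers 2 rose and 5 fell, at a summed level of 4478 to 5463 CPM in wild type and 4608 to 5282 in mutants. The osteoblast factor gene sp7 (log2 -1.09 ± 0.24) and col10a1a (log2 -0.89 ± 0.14) fell most, and the matrilin genes matn1 (log2 0.67 ± 0.14) and matn4 (log2 0.40 ± 0.14) rose. With upper-quartile scaling 1 of these rose and 8 fell, with limma on TPM 8 fell, and without wt12, s1 or s2 1 rose.

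Likeness of pattern was measured for the genes that rose and fell most as the root mean square difference of log2 CPM, centred per gene, over the 6 libraries. Closest to igfbp1a among 20145 candidate genes averaging 1 CPM or more were runx1 (0.10, log2 fold change 2.08 ± 0.27), arhgap28 (0.12, log2 fold change 1.82 ± 0.18) and catip (0.13, log2 fold change 2.00 ± 0.24). Closest to igfbp1b were slc2a11l (0.08, log2 fold change -1.15 ± 0.28), nnt2 (0.11, log2 fold change -1.41 ± 0.38) and baiap2l2b (0.16, log2 fold change -1.40 ± 0.31). The points compared are the same 6 libraries in 2 genotypes, and any gene with a similar change between genotypes will score as alike.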

How the data were processed

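The deposited gene table holds raw counts. featureCounts 2.0.1 produced these counts for the authors, per the file headers, from the Ensembl release 105 annotation of GRCz11 by summing exons per gene over paired reads with no strand option, and it gives gene lengths in bases. Per the submitters' processing notes, fastp 0.20.0, HISAT2 2.2.1, Salmon 0.12 and DESeq2 1.40.2 were also named. The authors' deposited comparison table gives log2 fold changes, standard errors and adjusted p-values. A table of ribosomal RNA precursor regions was not used here. Count columns show the genotype and not the replicate number.

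Symbols came from a gene name table (29201 of 32520 identifiers). Where copies share a symbol without a letter, the copy on the chromosome that RefSeq (GRCz12tu) gives for the lettered symbol was taken, for 5 of the 10 IGF genes. Of 189 listed symbols, 9 were left out, adm because its match was ambiguous and the others because they had no match.

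Differences were tested with edgeR 4.0.16 (R 4.3.3) on all 6 libraries, with TMM scaling, the default filter and the robust quasi-likelihood test between genotypes. The fit was run on simulated counts in which only a small part of the genes changed. In the data 62.2% of tested genes were called, so that check does not cover a change this broad. Standard errors derive from the quasi-likelihood statistic. No replicate pair was close enough to be a single library deposited again. Shares and ratios were tested with exact permutation in SciPy 1.17.1. The genes and lists were chosen with earlier results of these data known. Named in full were the 10 genes, and from each list the 2 called genes that rose most and the 2 that fell most averaging 1 CPM or more, then the 3 genes most like igfbp1a and igfbp1b. A gene that this rule names is not reported here. Alternatives were RLE and upper-quartile scaling, 2 other filters, DESeq2 1.42.0, limma 3.58.1 (voom, and log2(TPM + 1)), and each library left out in turn. For the shares the alternatives were CPM in place of TPM and each library left out.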

Additional observations from a re-analysis of the deposited data

How the results depend on the processing

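The increases of igf2b, igfbp1a and igfbp3 and the decreases of igfbp1b and igfbp5b passed in all 13 alternatives. The number of the 10 genes that rose was 3 in each, from 3 to 3 with a library left out. The number that fell, 5, was 3 with no filter beyond 1 count, 3 with DESeq2, and 2 to 4 with a library left out. The calls lost were those of igf1 (7 alternatives), igfbp5a (5) and igfbp2b (2). Upper-quartile scaling moved the median log2 fold change of all tested genes from -0.04 to -0.17 and turned the log2 fold change of igf2a, uncalled in either case, to -0.062. Over all tested genes, leaving out a library gave 5923 to 7129 higher and 5937 to 7138 lower, and upper-quartile scaling 5630 higher and 8047 lower. Shares kept their direction by CPM and with each library left out, and the difference for igfbp5b was -21.3 percentage points by CPM. The depth of igf1, at most 41 counts per library, limits its precision. No paired analysis was possible because the headings of the count columns do not carry the replicate numbers of the labels.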

Other observations

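Markers of ionocytes, the ion-transporting skin cells in which igfbp5a is known to act in zebrafish, were read library by library. The calcium channel gene trpv6, which marks calcium-transporting ionocytes, had 275, 62.9 and 47.3 CPM in wt11, wt12 and wt13 and 177, 104 and 98.8 CPM in s1, s2 and s3. In both genotypes the order of libraries was that of igfbp5a, with wt11 highest in wild type and s1 highest in the mutants. The markers gcm2, foxi3b and atp1a1a.2 shared this order, as did igfbp2a among the IGF genes, and the remaining markers did not. Neither the share of all tested genes with this order nor the share highest in wt11 was counted. Of the 12 tested, 8 were highest in wt11 within wild type and 4 in wt12, among them slc12a10.2 (37.4, 51.2 and 40.0 CPM), while slc9a3.2 was lowest in wt11 (2.05, 5.82 and 4.12 CPM). The factor gene foxi3a was highest in wt11 (28.3, 16.6 and 13.7 CPM) but lowest in s1 among the mutants (17.8, 20.2 and 19.0 CPM). Over all 6 libraries trpv6 was not called (log2 fold change -0.02, edgeR adjusted p = 0.985). Without wt11 it was higher in mutants (log2 fold change 1.21, edgeR adjusted p = 0.0322), whereas igfbp5a was lower (log2 fold change -0.50, edgeR adjusted p = 0.0235). Of 12 ionocyte markers tested over all libraries 4 rose and 1 fell, beside 30.5% and 31.8% of all tested genes. Without wt11 6 rose and 0 fell, with foxi3a (log2 fold change 0.34, edgeR adjusted p = 0.0405) and trpv6 added. In that fit 7129 of all 22054 tested genes were higher and 7138 lower in mutants. The summed level of the ionocyte markers was 606 to 991 CPM in wild type and 1006 to 1176 in mutants. The sodium pump gene atp1a1a.3 (log2 1.58 ± 0.13) and the cotransporter gene slc12a10.2 (log2 1.35 ± 0.14) rose most. The decrease of slc4a1b (log2 -0.42 ± 0.15) did not pass with DESeq2 or without wt11, wt12, s1, s2 or s3, and 2 markers fell with upper-quartile scaling or limma on TPM.

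Library wt11 held the highest wild type CPM for 7 of the 10 IGF genes, wt13 for 2 and wt12 for 1. This depended on the scale, as by TPM wt11 was highest only for igfbp1a, igfbp1b, igfbp2a and igfbp5a. The TMM factor was 0.965 for wt11, 1.026 for wt12 and 1.105 for wt13. How many of all tested genes were highest in wt11 was not counted, so these counts have no background to be read against. What sets wt11 apart is not stated in the labels, and its part in these values was not tested beyond the fits without it.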
